A study of Mus musculus with 6 samples.

Results

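The core loop of the circadian clock was examined in quadriceps femoris, a thigh muscle, through every array probe whose platform gene symbol is Arntl, Clock, Npas2, Per1, Per2, Per3, Cry1 or Cry2. This rule gave 16 probes of 8 genes, out of 46611 probes with a signal and 17711 named genes. The 3 transgenic arrays (RORalpha1delDE) carried RNA of mice with a truncated human RORalpha1 that lacks its E region, the ligand-binding part of a nuclear receptor, and some of the hinge. The human skeletal alpha-actin (HSA) promoter, which is active in skeletal muscle, drives that transgene, and the endogenous Rora gene is not stated to be altered. The 3 wild-type arrays carried RNA of mice without it. All mice were of C57BL/6 strain, lived on a 12 h light cycle with a diet of 4.6% fat, were fasted overnight and were killed at 9 in the morning. The hour at which lights came on, the sex and the age are not given in the sources used here. Gene expression was read on an Illumina BeadArray, on which each transcript is captured by beads that carry a probe, and levels are normalised log2 intensities.

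In the clock, the proteins of Arntl (BMAL1) and Clock pair up, bind E-box sequences and switch on the Per and Cry genes. The PER and CRY proteins then enter the nucleus and block that pair. In many tissues Per transcripts are high when Arntl transcripts are low and the reverse. A second loop joins this one to the receptor family of the study: ROR receptors activate Arntl and the REV-ERB receptors, encoded by Nr1d1 and Nr1d2, repress it through the same short elements in its promoter. Skeletal muscle holds such a clock, and its phase follows light, feeding and glucocorticoid hormones.

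In neither group did arrays 1 and 2 differ in a way that probes of one gene shared, and they were averaged into 1 sample. Across 525 genes with 2 bright probes, the difference between arrays 1 and 2 at one probe was almost unrelated to that at the other (r = 0.0316 for transgenic, r = 0.0341 for wild type). Against array 3 the same r was 0.711 and 0.752 in transgenic and 0.703 and 0.764 in wild type. Each group therefore counts 2 samples, arrays 1 and 2 together and array 3. No label ties an array to one mouse, so the p-values rest on a spread between samples that may be technical. Between 13979 and 14887 probes per array were above background. All 8 skeletal muscle markers, among them Acta1 and Ckm, were above background on every array. The 6 arrays lay on 1 chip with each group at its own positions, so position and genotype cannot be told apart.

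A probe was kept for testing when 3 or more of the 6 arrays detected it (detection p under 0.05), and 14420 probes passed. Of the member probes 8 of 16 passed, for 6 of the 8 genes: Arntl, Clock, Per1 (2 probes), Per2, Per3 (2 probes) and Cry2. Npas2 and Cry1 had no kept probe.

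Promoter sequence is shown because the loop works through short elements near the starts of these genes. RefSeq windows (build GRCm38.p6, 250 bases before to 50 after each annotated start) covered 7 of the 8 genes, all but Per2, with 11 starts. They were searched on both strands for the E-box CACGTG, the related CACGTT, the ROR and REV-ERB element TAGGTCA, its core AGGTCA, which lies within it, the D-box TTANGTAA of PAR bZIP factors such as DBP, the cAMP element TGACGTCA and the glucocorticoid response element. The following stretches belong to measured members with a clock motif and are written 5′ to 3′ on the gene's strand with the motif in capitals, where AACGTG is CACGTT read on the opposite strand.
Arntl, 19 to 48 bases after its second annotated start, chr7:113207529-113207558, plus strand: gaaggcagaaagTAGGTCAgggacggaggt
Per1, chr11:69098733-69098832, plus strand: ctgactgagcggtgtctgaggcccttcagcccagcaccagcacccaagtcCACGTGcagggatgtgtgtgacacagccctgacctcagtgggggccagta
Per3, chr4:151044796-151044915, minus strand: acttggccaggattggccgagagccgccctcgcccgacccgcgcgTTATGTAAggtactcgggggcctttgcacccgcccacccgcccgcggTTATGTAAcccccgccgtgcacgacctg
Cry2, chr2:92434186-92434285, minus strand: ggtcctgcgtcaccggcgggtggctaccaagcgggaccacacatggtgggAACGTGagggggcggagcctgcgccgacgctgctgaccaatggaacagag
TAGGTCA occurred in 2.61% of all 32851 windows, CACGTG in 7.15%, CACGTT in 4.68%, TTANGTAA in 2.32%, TGACGTCA in 1.79% and the glucocorticoid response element in 0.00913%. The core AGGTCA occurred in 16.3%, here also in Clock and Per1. In Arntl the element begins at base 31 after that start. Per3 holds 2 D-boxes, beginning 205 and 158 bases before its start. Cry1, which was not above background in this muscle, holds CACGTG at 60 and CACGTT at 79 bases before its start. The windows of Clock and Npas2 held none of the E-box, D-box, ROR or cAMP letters. No member window held the cAMP element or the glucocorticoid response element. Each match is a description of letters and not a measured binding site.

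No core loop probe passed the test between transgenic and wild-type muscle, while the 2 wild-type samples stood far apart at Arntl, Per2 and Per3. At the brightest probe of each gene the transgenic samples lay between them. Of the 8 kept probes 0 passed an adjusted p of 0.05 in limma (linear models with moderated variances, Benjamini-Hochberg over 14420 probes) and 0 had an unadjusted p under 0.05, against 0.00693% and 7.64% of all kept probes. With the 6 arrays taken as separate samples 0 of 8 passed as well, against 0.374% of all kept probes. The count by unadjusted p, the signs at Clock and Cry2 and that of the median difference turned on wild-type array 3. Without it, wild type is 1 sample assumed to vary like the transgenic ones, and in limma 5 of 8 probes (Arntl, the dimmer Per1 probe, Per2 and both Per3 probes) had an unadjusted p under 0.05, against 8.91% of all kept probes, with none past the adjusted threshold (adjusted p from 0.332 to 0.814 over the 8 probes). Adjusted p-values of the members with all arrays ran from 0.747 to 0.986. The median difference over the 6 genes, each by its brightest probe, was 0.13, with 4 above and 2 below 0, beside 0.02 over all kept probes.

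**Figure D1:**
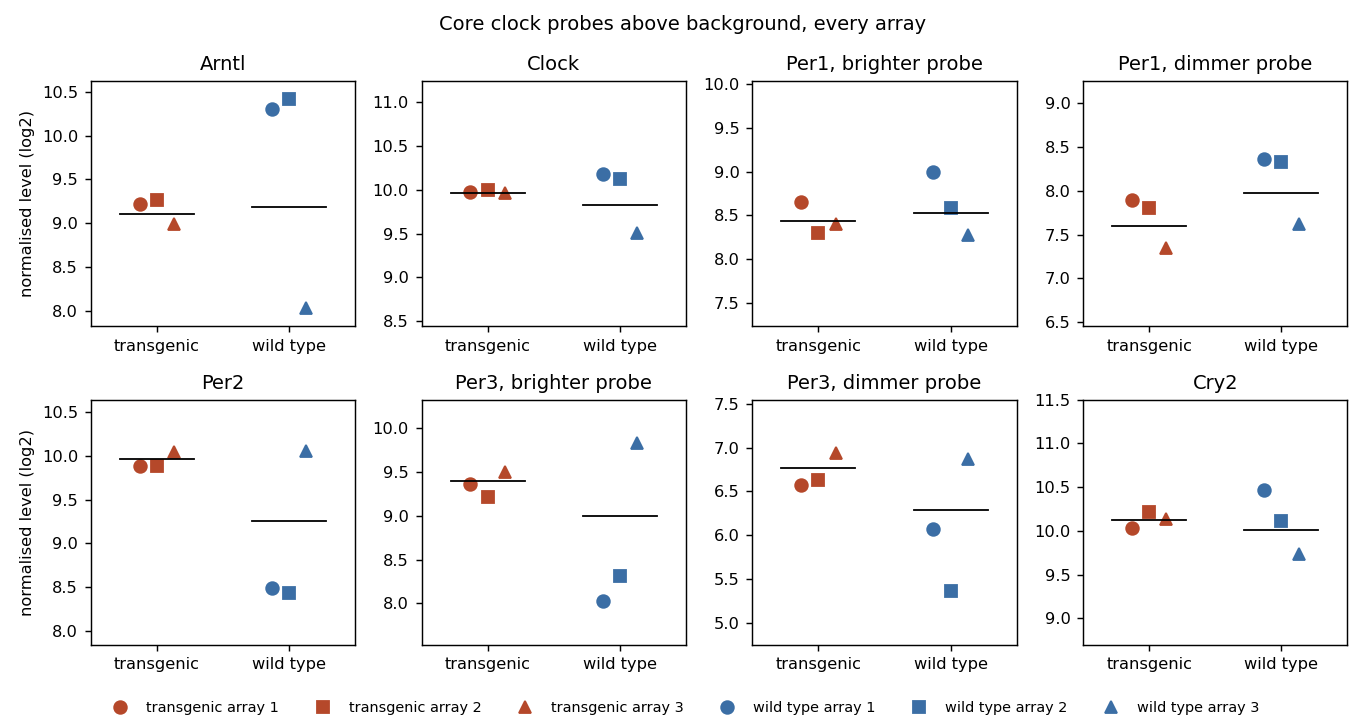
Normalised level (log2, vertical axis) of the 8 core clock probes above background on each of the 6 arrays, transgenic left and wild type right. Circles, squares and triangles are arrays 1, 2 and 3, and the horizontal bar is the mean of the 2 samples of a group; every panel spans the same number of log2 units. At Arntl, wild-type arrays 1 and 2 stand at 10.30 and 10.42 and wild-type array 3 at 8.03, and at Per2 the order of the wild-type arrays is turned round.

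Arntl encodes BMAL1, the partner of CLOCK without which the loop does not run. Its bead signal was 726.9, 726.3 and 586.5 on transgenic arrays 1 to 3, against 1587.4, 1647 and 389.2 on wild-type arrays 1 to 3. After normalisation the levels were 9.22, 9.26 and 8.99 on the transgenic arrays, against 10.30, 10.42 and 8.03 on the wild-type arrays. All transgenic arrays fell inside the wild-type range, below wild-type arrays 1 and 2 and above wild-type array 3. The group means were 9.11 ± 0.17 in transgenic and 9.19 ± 1.65 in wild-type samples (SD, n = 2 each). Their difference was -0.08 ± 0.69 (log2, SE, limma adjusted p = 0.986), with a 95% interval from -1.78 to 1.62. The difference was -1.24 without wild-type array 3, 1.08 without wild-type arrays 1 and 2, and 0.04 without transgenic array 3.

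Clock encodes the other partner of the activating pair. Its brightest probe read 9.98, 10 and 9.96 on the transgenic arrays, against 10.18, 10.12 and 9.51 on the wild-type arrays. The transgenic arrays again lay between wild-type arrays 1 and 2 and wild-type array 3, here over a narrower range than Arntl. The difference was 0.15 ± 0.25 (adjusted p = 0.901, 95% interval -0.46 to 0.76), and it turned to -0.17 without wild-type array 3. A second Clock probe was detected on 0 of 3 transgenic and 2 of 3 wild-type arrays, with 5.31, 5.20 and 5.38 against 6.33, 5.66 and 5.85. Its wild-type mean stood only 1.06-fold above the lowest level that counted as detected on the transgenic arrays. This margin lies near background, and the probe was not tested. The remaining Clock probe was detected on no array.

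Npas2 encodes a close relative of CLOCK that can take its place beside BMAL1. Its better probe was detected on 0 of 3 transgenic arrays and 1 of 3 wild-type arrays. Signals were 154.5, 150.6 and 160.8 on the transgenic arrays, against 214.2, 200.7 and 164 on the wild-type arrays. The highest signals were those of wild-type arrays 1 and 2, the arrays on which Arntl was highest, but the wild-type mean did not exceed the lowest detected level of the transgenic arrays, so no fold is given. The other Npas2 probe was not well above background on any array.

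Per1 encodes a PER repressor whose transcription also responds directly to glucocorticoids and cAMP signals. Its brighter probe read 8.65, 8.30 and 8.40 on the transgenic arrays, against 8.99, 8.58 and 8.28 on the wild-type arrays. Its dimmer probe read 7.89, 7.80 and 7.35, against 8.36, 8.33 and 7.62. Within wild type both Per1 probes were lowest on array 3, as Arntl and Clock were and Per2 and Per3 were not. The differences were -0.10 ± 0.22 (adjusted p = 0.933) and -0.39 ± 0.30 (adjusted p = 0.766), with 95% intervals from -0.64 to 0.45 and from -1.13 to 0.35. The first became 0.16 without wild-type arrays 1 and 2. The second was -0.75 without wild-type array 3, -0.14 without transgenic array 3 and -0.02 without wild-type arrays 1 and 2.

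Per2 encodes a PER repressor whose transcript runs opposite to that of Arntl in many tissues. Its bright probe read 9.88, 9.89 and 10.04 on the transgenic arrays, against 8.49, 8.43 and 10.06 on the wild-type arrays. Wild-type array 3 stood with the 3 transgenic arrays, and wild-type arrays 1 and 2 stood below all of them. The means were 9.96 ± 0.11 in transgenic and 9.26 ± 1.14 in wild-type samples (SD, n = 2 each), a difference of 0.70 ± 0.49 (adjusted p = 0.747, 95% interval -0.50 to 1.91). The difference was 1.5 without wild-type array 3 (highest of the alternatives tried) and -0.10 without wild-type arrays 1 and 2. A second Per2 probe was not well above background on any array.

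Per3 encodes a PER protein that is an output and modulator of the loop rather than an essential part. Its brighter probe read 9.37, 9.22 and 9.50 on the transgenic arrays, against 8.03, 8.31 and 9.83 on the wild-type arrays. Its dimmer probe, detected on 3 of 3 transgenic and 2 of 3 wild-type arrays, read 6.57, 6.63 and 6.94, against 6.07, 5.36 and 6.87. Wild-type arrays 1 and 2 were the lowest of the 6 arrays at both probes. The differences were 0.40 ± 0.51 (adjusted p = 0.856) and 0.48 ± 0.39 (adjusted p = 0.771). Without wild-type arrays 1 and 2 they were -0.43 and -0.11, and without wild-type array 3 they were 1.23 and 1.06. The remaining Per3 probe was detected on 0 of 3 transgenic and 1 of 3 wild-type arrays.

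Cry1 and Cry2 encode the cryptochromes, the stronger repressors of the BMAL1 and CLOCK pair. The bright Cry2 probe read 10.03, 10.21 and 10.13 on the transgenic arrays, against 10.47, 10.11 and 9.73 on the wild-type arrays. The difference was 0.11 ± 0.23 (adjusted p = 0.918, 95% interval -0.45 to 0.68), and -0.16 without wild-type array 3. The only Cry1 probe was detected on no array, with signals of 151.3, 138.1 and 132.7 on the transgenic arrays, against 160.8, 135.6 and 128.8 on the wild-type arrays. The second Cry2 probe was likewise not well above background anywhere.

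**Figure D2:**
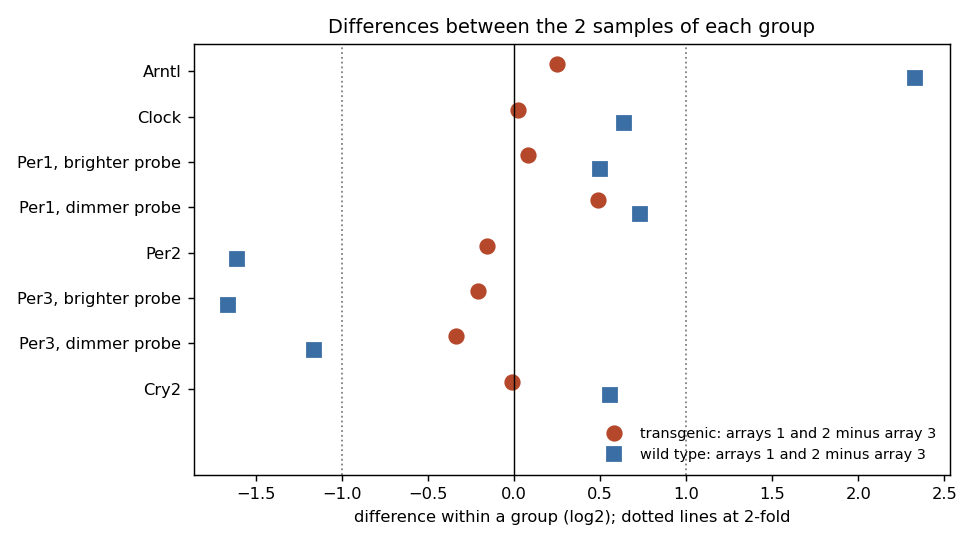
Difference between the 2 samples of a group (arrays 1 and 2 minus array 3, log2, horizontal axis) at each of the 8 core clock probes, circles for transgenic and squares for wild type. Dotted lines mark 2-fold, and the dimmer Per3 probe includes 1 wild-type array that did not detect it. Wild type runs from -1.66 at Per3 to 2.33 at Arntl, and transgenic from -0.34 to 0.49.

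Within wild type, Arntl was 5.02-fold higher on arrays 1 and 2 than on array 3, a log2 difference of 2.33. Of all 14420 kept probes, 0.0763% differed as far between these samples. Per2 ran the other way, with a difference of -1.61, which 0.43% of probes matched or passed, and so did the brighter Per3 probe with -1.66 (0.381%). The dimmer Per3 probe differed by -1.16, but wild-type array 2 did not detect it, and with that array at its lowest detected level the difference was -0.95. In fold terms Per2 was 3.04-fold and Per3 3.16-fold higher on wild-type array 3 than on wild-type arrays 1 and 2. Clock, Cry2 and the Per1 probes differed by 0.64, 0.56, 0.50 and 0.73, which between 7.39% and 18.4% of probes matched or passed. Wild-type arrays 1 and 2 themselves differed by -0.12 at Arntl, 0.06 at Clock and Per2, 0.03 at the dimmer Per1 probe and -0.28 at the brighter Per3 probe. They differed by 0.40 at the brighter Per1 probe, 0.36 at Cry2 and 0.71 at the dimmer Per3 probe, beside gaps to array 3 of 0.50, 0.56 and -1.16. With undetected values at the lowest detected level, 3 of 8 member probes stood at least 2-fold apart within wild type, beside 2.15% of all kept probes. With the values as measured the count was 4, beside 2.57%. With 1 sample on each side this is a comparison of these 2 RNA samples and has no test.

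Within the transgenic group the same differences were smaller. Arntl differed by 0.25, Per2 by -0.16 and the brighter Per3 probe by -0.21, and 0 of 8 member probes reached 2-fold, beside 1.87% of all kept probes. The largest was 0.49 at the dimmer Per1 probe, which 14.6% of all kept probes matched or passed. The median absolute difference over the 8 probes was 0.18 within the transgenic group and 0.95 within wild type, beside 0.20 and 0.24 over all kept probes. Over the 6 genes, each by its brightest probe, it was 0.12 and 1.12. Both transgenic samples lay between the wild-type samples at 6 of 8 member probes, the brightest probe of each of the 6 genes, where 17.4% of all kept probes did so. At Per2 this rests on a margin of -0.02 between transgenic array 3 and wild-type array 3, and with the deposited log2 values 5 of the 6 genes were so placed. The members are not independent of each other, and whether the spread differs between genotypes cannot be tested with 2 samples a group. None of the 8 kept core loop probes separated the groups without overlap, where 39.6% of all kept probes did. Among the probes not kept, the second Clock probe, near background, did so with transgenic below. So did the remaining Clock probe (transgenic below) and the second Cry2 probe (transgenic above), both detected on no array.

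**Figure D3:**
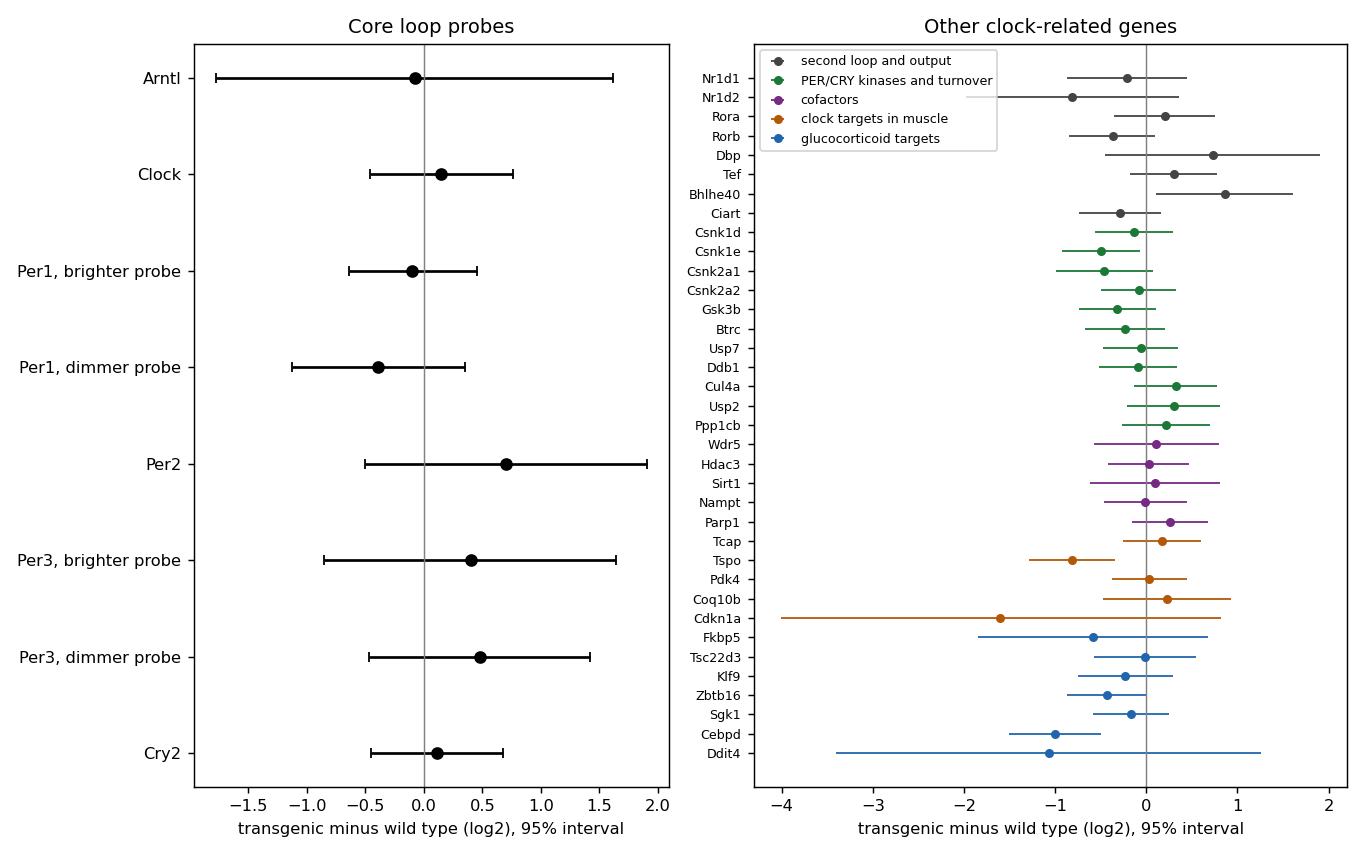
Transgenic minus wild type (log2, horizontal axis) with 95% intervals from limma (n = 2 samples a group), left for the 8 core clock probes and right for 36 other clock-related genes, coloured by list. All 8 core loop intervals include 0, and the widest of them, at Arntl, runs from -1.78 to 1.62.

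Other genes of the clock were taken from 5 lists with 57 genes, of which 36 had a kept probe. With limma 0 passed the adjusted threshold; 1 gene was higher and 3 were lower at an unadjusted p under 0.05, 11.1% of the 36 beside 7.64% of all kept probes. The median of the 36 differences was -0.09.

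In the second loop and output list, with 8 of 13 genes kept, 4 differences were above and 4 below 0, with a median of -0.01. Bhlhe40, which encodes the repressor DEC1, differed by 0.86 ± 0.31 (limma adjusted p = 0.645), with 11.62, 11.59 and 11.89 on the transgenic arrays, against 10.56, 10.37 and 11.31 on the wild-type arrays. Rorb, a ROR receptor detected on 4 of 6 arrays, differed by -0.37 ± 0.20 (adjusted p = 0.694). Nr1d2, the REV-ERB beta gene, read 10.07, 10.15 and 10.16 on the transgenic arrays, against 11.88, 11.57 and 10.16 on the wild-type arrays, a difference of -0.81 ± 0.48 (adjusted p = 0.718). The excess of wild-type arrays 1 and 2 at Nr1d2 was 2.95-fold over wild-type array 3. Nr1d1, the REV-ERB alpha gene, differed by 0.50 within wild type and by -0.54 within the transgenic group. Rora itself read 11.95, 12.12 and 12.54 on the transgenic arrays, against 12.19, 12.11 and 12.03 on the wild-type arrays, a difference of 0.20 ± 0.22 (adjusted p = 0.835). It differed by -0.50 within the transgenic group and by 0.11 within wild type. Nr1d1 and Rora are given as the receptors that act on Arntl and were named after their values were seen.

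The enzymes that phosphorylate or degrade PER and CRY had 11 of 16 genes kept, with a median of -0.09 and 8 below 0. Csnk1e, casein kinase 1 epsilon, which marks PER proteins for breakdown, read 11.12, 11 and 10.88 on the transgenic arrays, against 11.43, 11.53 and 11.47 on the wild-type arrays. Its difference of -0.50 ± 0.18 had an adjusted p of 0.645 in limma, and the groups did not overlap. Unlike the core loop, Csnk1e hardly differed within wild type (0.01). Csnk2a1, the catalytic subunit of casein kinase 2, differed by -0.46 ± 0.22 (adjusted p = 0.664) and Gsk3b, another kinase of clock proteins, by -0.32 ± 0.17 (adjusted p = 0.707).

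The cofactor list, with 5 of 12 genes kept, had a median of 0.10. Parp1, Wdr5 and Sirt1 differed by 0.26, 0.11 and 0.10, with limma adjusted p-values from 0.737 to 0.95. Among clock targets in muscle, with 5 of 8 kept and a median of 0.03, Tspo, a mitochondrial outer membrane protein, differed by -0.82 ± 0.20 (adjusted p = 0.569), with 8.34, 8.40 and 8.60 on the transgenic arrays, against 9.24, 9.10 and 9.43 on the wild-type arrays. Cdkn1a, a cell cycle inhibitor, differed by -1.60 ± 0.99 (adjusted p = 0.727) and Tcap, a titin-binding protein of the Z-disc, by 0.17 ± 0.18 (adjusted p = 0.822).

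Glucocorticoid targets were listed because the hormone shifts muscle clocks and acts on Per1 directly. Of 8 genes 7 were kept, all with differences below 0 and a median of -0.43, beside 0.02 over all kept probes, and 0 passed the adjusted threshold in limma. The direction depended on the wild-type sample. Against wild-type array 3 alone, transgenic arrays 1 and 2 and transgenic array 3 were higher at Fkbp5 (0.41 and 0.08) and Tsc22d3 (0.25 and 0.25). Ddit4 was mixed (1.06 and -0.17), Cebpd, Zbtb16 and Sgk1 were lower in both, and the remaining gene was about level. Cebpd, a transcription factor, differed by -1.0 ± 0.21 (adjusted p = 0.472), Zbtb16 by -0.43 ± 0.18 (adjusted p = 0.653) and Fkbp5, a co-chaperone of the glucocorticoid receptor, by -0.59 ± 0.52 (adjusted p = 0.787). Fkbp5 read 10.57, 10.58 and 10.25 on the transgenic arrays, against 11.75, 11.92 and 10.17 on the wild-type arrays. It was thus high on the same wild-type arrays as Arntl, by 3.18-fold over wild-type array 3. Ddit4, singled out after its values were seen, and Cdkn1a were higher on wild-type arrays 1 and 2 than on wild-type array 3 by 3.02 and 3.08. Both were also over 2-fold apart within the transgenic group, Ddit4 by 1.23 and Cdkn1a by 1.4, where no core loop probe was. Of the 7 kept glucocorticoid genes only Fkbp5 and Ddit4 stood over 2-fold apart within wild type, and the others differed there by 0.01 at Sgk1 to 0.53 at Tsc22d3. The part of these genes in the difference of the core loop between the wild-type samples was not tested.

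**Figure D4:**
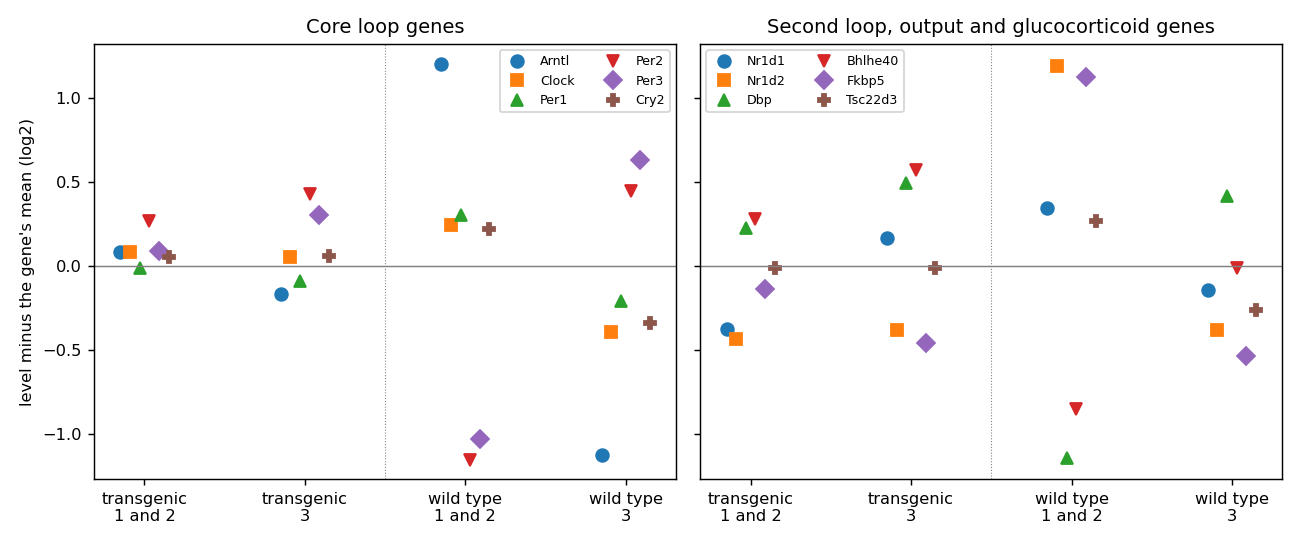
Level of each gene minus its own mean over the 4 samples (log2, vertical axis), with core loop genes on the left and second loop, output and glucocorticoid genes on the right. The wild-type sample of arrays 1 and 2 is high at Arntl (1.20) and low at Per2 (-1.15), Per3 (-1.03) and Dbp (-1.14), and the wild-type sample of array 3 is low at Arntl (-1.12).

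The genes most like the members were sought for Arntl and Per2, the members with the largest SD over the 4 samples, 0.957 and 0.773. Likeness was the root mean square difference between centred log2 levels over 4 samples, among 8396 other named genes. The gene nearest to Per2 was Dbp, a PAR bZIP output factor that BMAL1 and CLOCK also drive through E-boxes, at a distance of 0.0451. Dbp read 11.20, 11.20 and 11.47 on the transgenic arrays, against 9.88, 9.79 and 11.39 on the wild-type arrays. Ccdc50 (0.0826) and Shisa2 (0.0996) came next. The mirror image of Per2 was closest to Fkbp5 (0.0853), Nr1d2 (0.0924) and Ampd3, an AMP deaminase (0.0944). Nearest to Arntl were Ccn2 (0.173), Lox (0.182), which encodes the collagen crosslinking enzyme lysyl oxidase, and Slc10a6 (0.19). Nearest to the mirror image of Arntl was another member, Per3 (0.285), followed by Cish (0.309) and Ccdc50 (0.322). With 4 samples, many genes can come this close, and these distances are descriptions.

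Markers of other cell and fibre types also varied between samples. Slow-fibre markers, 7 of 8 kept, had a log2 summed level of 16.81 in transgenic arrays 1 and 2 and 12.97 in transgenic array 3, against 16.34 and 16.18 in wild type. Adipocyte markers, 4 of 8 kept, summed to 10.11 and 11.76 in the transgenic samples, against 13.28 and 13.92 in wild type, with Retn and Fabp4 detected on no array. The kept adipocyte markers were not lower to the same degree. Ucp1 was detected on all wild-type arrays and no transgenic array, and Cidea differed by -4.04. Cidec differed by -1.46 and Adipoq by -1.13. At Adipoq the groups overlapped, with transgenic array 3 at 11.05 above wild-type arrays 1 and 2 at 10.74. Macrophage markers, 5 of 8 kept, summed to 9.36 and 10.45, against 9.52 and 9.19. Fibroblast markers, all 6 kept, summed to 14.11 and 14.38, against 14.33 and 13.81. Endothelial markers, 6 of 6 kept, summed to 12.49 and 12.25, against 12.54 and 12.19, erythroid markers, 2 of 3 kept, to 13.84 and 13.98, against 14.15 and 13.60, and the 1 kept nerve marker of 4, Pmp22, stood at 11.08 and 10.53, against 11.17 and 10.36. By summed level, wild-type array 3 was the lowest of the 4 samples for the macrophage, fibroblast, endothelial and erythroid lists and at Pmp22. It was also lowest at the brightest probes of Arntl, Clock, Per1 and Cry2, and highest at those of Per2 and Per3. The endothelial margin was small (12.19 against 12.25 in transgenic array 3). Pecam1, Kdr and Tek were lowest in transgenic array 3, and Cdh5, Tie1 and Egfl7 in wild-type array 3. Of the erythroid markers, Hba-a1 was lowest in wild-type array 3, and Alas2 was level (8.09) there and in transgenic arrays 1 and 2. Of the macrophage markers, Adgre1 and C1qc were lowest in wild-type array 3, and C1qa, C1qb and Lyz2 were not. The skeletal muscle list was also lowest there, at 18.20 against 18.25 to 18.27. In a piece of tissue, fewer cells of a type and less RNA per cell cannot be told apart. The part of these cell types in the values of the core loop was not tested.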

How the data were processed

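The signal table holds linear bead intensities, exported by the authors from BeadStudio 2.3.41, which the submitters' processing notes name without a background setting. Its detection p-value columns, so named per the file headers, rise with signal and were read as 1 minus p. The second deposited table holds log2 values, centred by array and by probe median as found from the signals; array medians ran from -0.023 to 0.014. The deposited signal rows were displaced by 0 to 21 rows against their identifiers and were returned to 46611 of 46632 probes by comparing their array-to-array differences with the log2 table (tolerance 0.002) (Python 3.11.15). Detection values then followed signals (Spearman's rho across probes at least 0.99996, and at most 0.037 as deposited). Of these probes 29976 had 1 gene symbol, 10 several and 16625 none here; RefSeq held 29921 of them by Entrez identifier and changed 0.

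Signals were background corrected (normexp, inferred negative controls, offset 16), quantile normalised and compared on the log2 scale with limma 3.58.1 in R 4.3.3 (two-sided). Arrays 1 and 2 of a group were averaged. The steps were tested on simulated data. The smallest p of an exact permutation test with 2 samples a group is 0.333. Alternatives covered sample handling, background, normalisation, the deposited log2 values, filters and left-out arrays. Named genes were the members, the 3 smallest p of each clock list and the nearest profiles. Nr1d1, Rora, Ddit4, Sgk1 and Tsc22d3 fall outside this rule and were named after their values were seen, as were single cell type markers. Members, lists and tests were chosen with earlier results of these data known. The number of arrays limits the precision.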

Additional observations from a re-analysis of the deposited data

How the results depend on the processing

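The count of core loop probes past the threshold was 0 under all 19 alternatives, and so was that of the 36 other clock genes. Core loop probes with an unadjusted p under 0.05, 0 of 8 here, were 5 without wild-type array 3, 2 with 6 arrays and a replicate block, and 1 with 6 separate arrays, without wild-type arrays 1 and 2, or (of 16) with no detection filter. The count over all probes, 1 here, was 54 with 6 separate arrays, 13 with a random block for the RNA sample, 15 with 6 arrays and a replicate block, 9 at offset 50, 8 on uncorrected signals, 3 after median centring, 7 on the deposited log2 values, 10 under an intensity trend, 0 (limma, 919 at an unadjusted p under 0.05) among probes detected on all 6 arrays, 3 at adjusted p under 0.10, and 1 to 8 when 1 array was left out, with 8 without transgenic array 3. The causes were not tested. Same-numbered arrays did not deviate together (r from 0.000456 to 0.0616), so numbers do not pair samples; with the averaged samples and a replicate block the count over all probes was 1.

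The median difference of the 6 genes, 0.13, ran from -0.17 to 0.18 when 1 array was left out, the lowest without wild-type array 3. Signs turned at single probes. Leaving out 1 array, Arntl ran from -1.24 to 0.04, Clock from -0.17 to 0.16, the brighter Per1 probe from -0.35 to 0.00, the dimmer from -0.75 to -0.14 and Cry2 from -0.16 to 0.20. Arntl was 0.04 without transgenic array 3 and 1.08 without wild-type arrays 1 and 2. Clock was -0.17 and Cry2 -0.16 without wild-type array 3. The brighter Per1 probe was 0.00 without wild-type array 1 and 0.16 without wild-type arrays 1 and 2, and Per2 and the Per3 probes were -0.10, -0.43 and -0.11 without wild-type arrays 1 and 2. That last alternative was chosen after seeing the data, as were the settings for the difference within wild type. Over those settings, the Arntl difference within wild type ran from 1.85 to 2.57, Per2 from -1.61 to -1.15 and the brighter Per3 probe from -1.66 to -1.15; the dimmer Per3 probe, from -1.16 to -0.46, stayed past 2-fold only with median centring, which left 3 or 4 probes at least 2-fold apart. Both transgenic samples lay between the wild-type samples at all 6 genes under these settings except with the deposited log2 values (5).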
